A study of Macaca mulatta with 5 samples.

Results

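The kidney of the rhesus macaque was compared with cerebellum, lung, heart and spleen, using 1 RNA-Seq library per tissue and the transcript values deposited for each. The comparison covered 15688 genes, which were those of 28633 genes with an identifier that reached 1 RPKM in at least 1 of the 5 tissues. RPKM divides the reads of a transcript by its exon length and by the properly mapped reads of the library. A gene stood for its transcript with the highest RPKM summed over the 5 tissues, and its kidney level was set against the highest and the lowest of the other 4 tissues as a ratio of RPKM + 1. In kidney, 11958 of these genes reached 1 RPKM, and 438 were at least 5-fold above the highest of the other tissues, here called kidney-high.

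All 5 tissues are labelled as coming from male animals, with no treatment, age or strain in the labels. The libraries were prepared from poly(A)-positive RNA with a strand-specific dUTP protocol. The study's methods give cerebellum, kidney, lung and heart as tissues of 1 animal, and the animal that gave the spleen is not stated in the sources used here. Differences between tissues therefore have no replicate check, no p-value is given, and intervals given below cover only the counting of reads. They do not cover variation between animals, or reads that are copies of 1 molecule.

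Kidney filters blood plasma in the glomerulus, where podocytes form the slit diaphragm that holds back protein. The proximal tubule then takes back most of the salt, water, glucose, amino acids and phosphate, secretes organic acids and drugs, and makes glucose. The thick ascending limb and the distal tubule recover more salt, calcium and magnesium, and the collecting duct sets the final salt, water and acid content of urine through principal and intercalated cells. In bulk RNA a lower level can come from fewer cells of a type or from less RNA per cell, and these cannot be told apart.

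Kidney had the fewest properly mapped reads, 48306898, against 63322572 to 81517974 in the other tissues. For a transcript of 1000 bp, 3 reads corresponded to 0.0621 RPKM in kidney and to 0.0368 to 0.0474 RPKM elsewhere, so a kidney level near 0 was known less well than the same level in another tissue. Of the kidney reads, 43.7% lay on the rows that stood for genes. The 10 genes with the most reads held 5.34% of these, the top 100 held 20.5%, and 928 genes held 50%. Heart was more concentrated by this count, with 14.1% of gene reads in its top 10 genes. The share in kidney was above the 3.90% in cerebellum and the 4.33% in spleen and below the 7.87% in lung. These shares leave out transcripts without a gene identifier. Over all transcript rows, where transcripts of 1 gene can carry the same reads, the top 10 held 5.30% in kidney and 4.53% in lung. The order of kidney and lung thus depended on the rows counted. The rows that stood for genes held 26.9% of the properly mapped reads in heart and 50.9% in lung. Of properly mapped reads, the top 10 genes held 3.79% in heart and 2.33% in kidney. The top 100 genes held 9.05% of them in heart, 8.94% in kidney and 10.4% in lung. On that base heart and kidney were close for the top 100 genes.

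**Figure D1:**
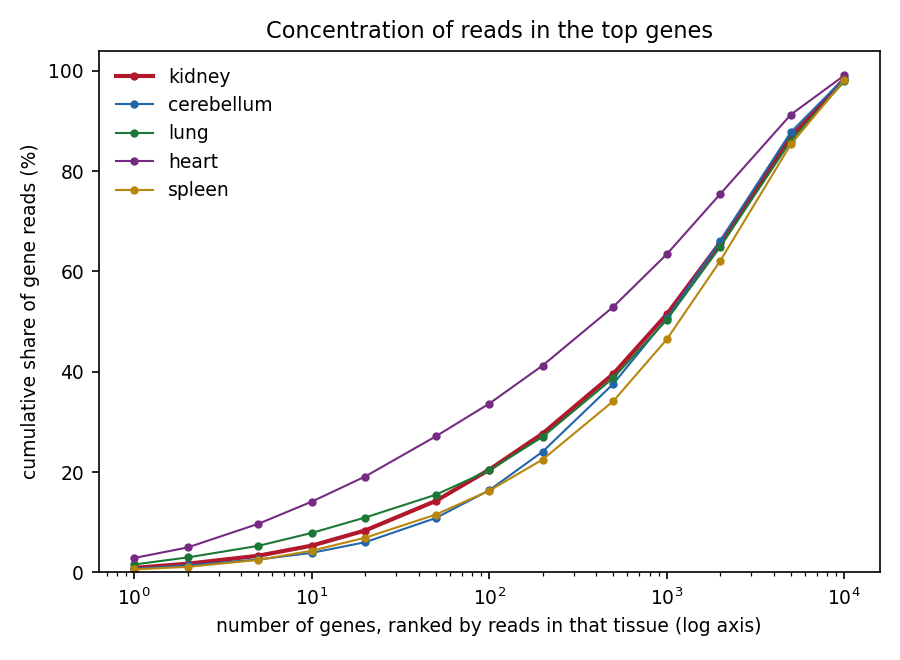
Cumulative share of gene reads in percent (y axis, from 0) against the number of genes ranked by reads within each tissue (log x axis), 1 line per tissue and library. The kidney line reaches 5.34% at 10 genes and 20.5% at 100 genes, beside the lung line at 100 genes and below the heart line throughout.

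The kidney transcript with the most reads carried no gene identifier in the kidney file. It held 910525 reads, 1.88% of the properly mapped reads, at 5262 RPKM (95% Wilson interval 5251 to 5273). The same transcript was at 44.0 RPKM in cerebellum, 160 in lung, 83.7 in heart and 42.6 in spleen, so kidney was 32.7-fold above the highest of the others on the RPKM + 1 scale. It lies on rheMac2 at chr6:147414850-147444056, with an exon length of 3582 bp, after the gene ZNF300 and reaching into TNIP1. In RefSeq's gene order on the assembly T2T-MMU8v2.0, GPX3, the gene of the secreted glutathione peroxidase, lies between those neighbours, and the transcript was not matched to it by sequence. Of 3354 transcripts without a gene identifier at 1 RPKM or more in a tissue, 117 (3.49%) were kidney-high by the same rule. That share was near the 2.79% of genes with an identifier.

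Among genes with an identifier, enzymes and carriers of the tubule were among the genes with the most reads. UMOD, the gene of uromodulin, the most abundant protein of normal urine, had 126094 reads. CYP4A11, a fatty acid hydroxylase, had 88298 reads and PCK1, the rate-limiting enzyme of gluconeogenesis, had 87741. Of the 20 genes with the most kidney reads, 11 were kidney-high. Others were expressed in all 5 tissues, such as the ferritin light chain FTL, at 1878 RPKM in kidney and 1518 in spleen. TMBIM6, a membrane protein of the endoplasmic reticulum, was at 505 RPKM in kidney and 149 in lung, and the splicing factor SRRM2 at 176 in kidney and 253 in lung.

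The 438 kidney-high genes were 2.79% of the genes compared. By the same rule cerebellum had 561 genes (3.58%), lung 197, heart 141 and spleen 183. The kidney-high genes held 19.1% of the gene reads in kidney and between 0.338% and 0.443% in each of the other 4 tissues. A higher share in kidney was given by the rule that chose these genes. Their kidney level was at 100 RPKM or more for 98 genes, at 10 to under 100 for 292, and under 10 for 48. The median exon length was 1882 bp, against 2004 bp over all genes compared. Nearest inside the 5-fold line were PKLR, the liver and red cell pyruvate kinase, with a ratio of 5.038, HOXA7 with 5.067 and the growth hormone receptor GHR with 5.074. Nearest outside it were BTBD16 with 4.974, CLMN with 4.958 and SPR, the sepiapterin reductase, with 4.945.

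**Figure D2:**
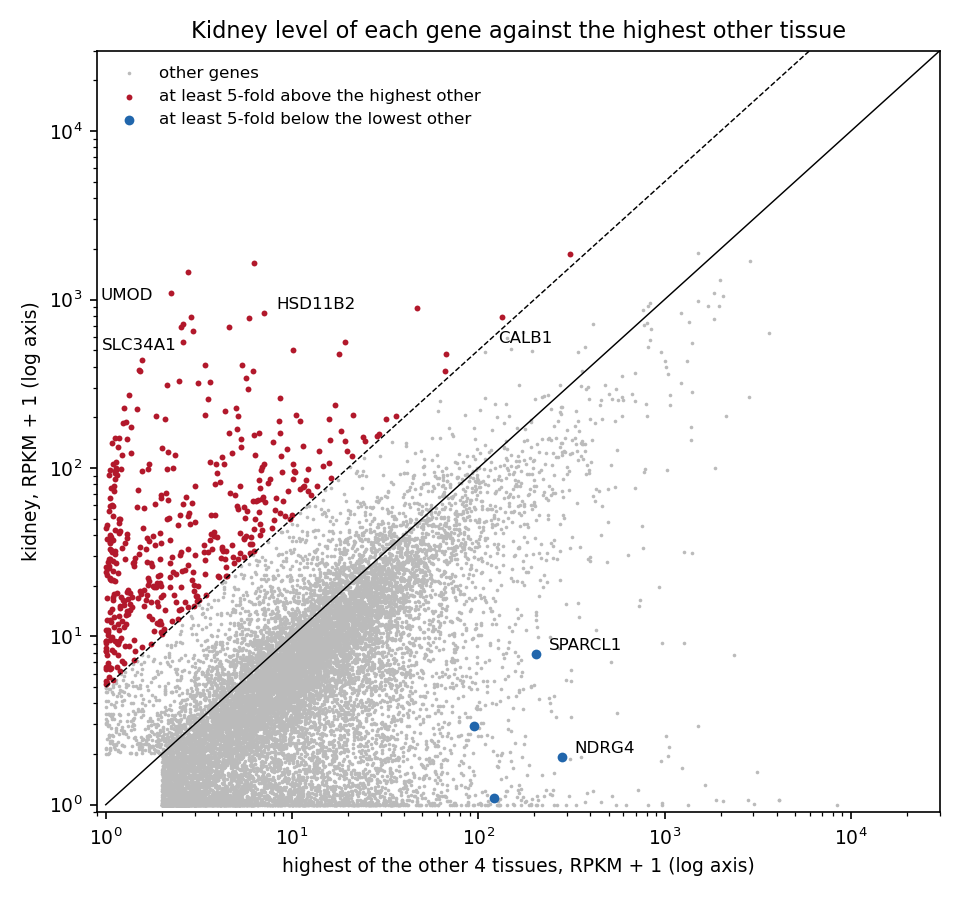
Each point is 1 of 15688 genes, with RPKM + 1 in kidney (log y axis) against RPKM + 1 in the highest of the other 4 tissues (log x axis). The solid line marks equal levels and the dashed line a 5-fold higher level in kidney. The 438 red points lie on or above the dashed line, and the 4 blue points are at least 5-fold below the lowest other tissue.

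The highest ratio of a gene with a symbol was that of the gene the name table calls FXYD6, a name of a regulator of the sodium pump. It was at 1460 RPKM in kidney, 0 in cerebellum, 0.182 in lung, 0.243 in heart and 1.78 in spleen, a ratio of 526. FXYD2, the kidney member of that family, had no match in the name table, and FXYD6 is known from brain, so this symbol is uncertain here. UMOD followed at 1086 RPKM (95% Wilson interval 1080 to 1092) in kidney, 0 in cerebellum, lung and heart, and 1.24 in spleen, a ratio of 485. It lies at chr20:19328953-19349127 on rheMac2. SLC34A1, the sodium-phosphate carrier of the proximal brush border, was at 435 RPKM in kidney, listed at 0 in cerebellum, lung and heart, and at 0.564 in spleen, a ratio of 279.

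Proximal tubule solute carriers and channels were mostly kidney-high. Of 35 expressed genes in a list of 41 names, 25 were kidney-high, with a median ratio of 24.0 against 0.566 over all genes. All 35 were higher in kidney than in any of the other 4 tissues. In this list and those below, a member that reached 1 RPKM only in kidney was included through kidney and had to be highest there. The organic anion carrier SLC22A6 was at 559 RPKM in kidney, 1.59 in cerebellum, 0.0114 in lung, 0 in heart and 0.800 in spleen. Its relative SLC22A8 was at 184 RPKM and the urate carrier SLC22A12 at 271, at most 0.242 and 0.341 in the other tissues. The organic cation carrier SLC22A2 was at 148 RPKM in kidney and at most 0.306 elsewhere. SLC22A7 was lower, at 20.7 RPKM in kidney and at most 0.0716 elsewhere. The SLC22 carriers named so far spanned 20.7 to 559 RPKM in kidney and were at or below 1.59 RPKM in the other libraries. SLC22A13 of the same list was not kidney-high, at 3.64 RPKM in kidney and 0.246 in cerebellum, a ratio of 3.72.

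Glucose and amino acid carriers of the list were also higher in kidney than elsewhere. SLC5A2, the main glucose carrier of the early proximal tubule, was at 40.7 RPKM in kidney, 0.00904 in cerebellum, 0.171 in lung, 0.0116 in heart and 0.146 in spleen. SLC5A1, which takes up the remaining glucose later in the tubule, was at 2.78 RPKM in kidney and at most 0.115 elsewhere, a ratio of 3.39 that did not reach 5-fold. The basolateral glucose carrier SLC2A2 was at 8.47 RPKM in kidney and 0.413 in lung. SLC3A1 and SLC7A9, the partners of the cystine carrier, were at 186 and 33.0 RPKM in kidney. SLC6A19, the carrier of neutral amino acids, was at 95.7 RPKM in kidney, 0 in cerebellum, lung and heart and 0.0534 in spleen. Some members had higher levels in other tissues as well. The amino acid carrier SLC7A7 was at 66.0 RPKM in kidney, 27.5 in spleen and 15.6 in lung, SLC7A8 at 141 in kidney and 33.4 in spleen, and the bicarbonate carrier SLC4A4 at 84.0 in kidney and 16.7 in cerebellum.

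Other carriers of this list bring in organic acids, sulphate and drugs. The dicarboxylate carrier SLC13A3 was at 410 RPKM in kidney and 4.38 in cerebellum, and 78238 kidney reads made it 1 of the 20 genes with the most reads. The sulphate carrier SLC13A1 was at 74.8 RPKM in kidney and at most 0.0722 elsewhere. The lactate carrier SLC5A12 was at 77.6 RPKM in kidney and 0.103 in spleen. SLC47A1 and SLC47A2, which extrude organic cations into urine, were at 108 and 48.8 RPKM. SLC2A9, a urate carrier, had no kidney read, and neither it nor SLC17A4, a phosphate carrier relative, reached 1 RPKM in any tissue. AQP1, SLC34A3, SLC13A2 and SLC22A11 had no match in the name table and were not analysed here.

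In the brush border and the endocytic machinery, 11 of 16 expressed genes were kidney-high and 15 were highest in kidney, with a median ratio of 12.8. DPEP1, a membrane dipeptidase, was at 715 RPKM in kidney, 0 in cerebellum, 0.161 in lung, 0.0198 in heart and 1.59 in spleen, a ratio of 276. LRP2 and CUBN, the megalin and cubilin receptors that take filtered protein back, were at 118 and 96.3 RPKM in kidney and at most 0.228 and 0.139 elsewhere. The peptidases ANPEP, MME and ENPEP were at 188, 81.5 and 68.3 RPKM in kidney, with ratios of 17.2, 20.1 and 14 to lung, the next tissue for each. NAPSA, an aspartic protease shared with lung, went the other way, at 49.4 RPKM in kidney and 121 in lung. DAB2, an endocytic adaptor, was at 106 RPKM in kidney and 75.6 in spleen.

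Genes of glucose synthesis were led by kidney. Of 11 genes of gluconeogenesis and fructose metabolism, 7 were kidney-high, all 11 were highest in kidney, and the median ratio was 15. PCK1 was at 685 RPKM in kidney, 0.264 in cerebellum, 3.57 in lung, 0.280 in heart and 1.14 in spleen. G6PC1, the glucose-6-phosphatase that releases free glucose, was at 311 RPKM in kidney and at most 1.13 elsewhere, and FBP1, the fructose bisphosphatase, at 473 in kidney and 16.9 in lung. GLUD1, the glutamate dehydrogenase that feeds this route, was less restricted in level, at 37.0 RPKM in kidney and 15.4 in cerebellum.

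Amino acid and organic acid enzymes gave the largest count of any list, with 27 of 34 expressed genes kidney-high and a median ratio of 24.7. This list also held the most names, 48. By share it was at 79.4%, below the 84.6% of the thick ascending limb. GLYAT, which joins glycine to acyl groups such as benzoate, was at 788 RPKM in kidney, 0.0310 in cerebellum, 1.86 in lung, 0 in heart and 0.924 in spleen. MIOX, the first enzyme of inositol breakdown, was at 380 RPKM in kidney, listed at 0 in cerebellum, lung and heart, and at 0.512 in spleen. HAO2, a hydroxyacid oxidase of peroxisomes, was at 224 RPKM in kidney and at most 0.465 elsewhere. DDC, which makes dopamine in the proximal tubule, was at 150 RPKM in kidney and at most 0.128 elsewhere, with cerebellum listed at 0. CYP4A11 was at 645 RPKM in kidney and 1.95 in lung, and ACY1, an aminoacylase, at 501 in kidney and 9.11 in heart. The 7 members below 5-fold included FAH, of tyrosine breakdown, at 22.9 RPKM in kidney and 29.3 in spleen, and the kynurenine enzymes KYNU and KMO, at 2.72 and 22 in kidney against 3.09 and 11.5 in spleen.

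The genes of peroxisomes and fatty acid oxidation gave a smaller count, 5 of 19, with a median ratio of 2.66. They included ACOX2, ACAA1, AMACR and CPT2. ACAA1, a thiolase of peroxisomes, was at 104 RPKM in kidney and at most 6.05 elsewhere. The mitochondrial trifunctional enzyme had heart as its highest tissue, with HADHA at 66.3 RPKM in kidney and 71.5 in heart and HADHB at 93.6 and 154. CPT1B, the muscle form of carnitine palmitoyltransferase, was at 3.04 RPKM in kidney and 43.4 in heart, the lowest ratio of the list at 0.0909. The liver and kidney form CPT1A was at 28.9 RPKM in kidney and 25.3 in lung.

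Thick ascending limb genes had the highest median ratio of all the lists, 33.1, with 11 of 13 expressed genes kidney-high. SLC12A1, the sodium-potassium-chloride carrier that furosemide blocks, was at 139 RPKM in kidney, 0.00261 in cerebellum, 0 in lung and heart and 0.0760 in spleen. The potassium channel KCNJ1 was at 31.1 RPKM in kidney and the chloride channel subunit BSND at 5.99, each at most 0.119 elsewhere. Of the claudins that form the pores between these cells, CLDN10 was at 59.7 RPKM and CLDN16 at 14.4 in kidney, while CLDN14 was at 0.513 and not among the genes compared. EGF, a growth factor made by this segment and by the distal tubule, was at 59.3 RPKM in kidney and at most 0.0792 elsewhere. The calcium-sensing receptor CASR stayed below 5-fold at 6.07 RPKM in kidney and 0.604 in spleen, and the prostaglandin receptor PTGER3 at 5.04 and 2.33.

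**Figure D3:**
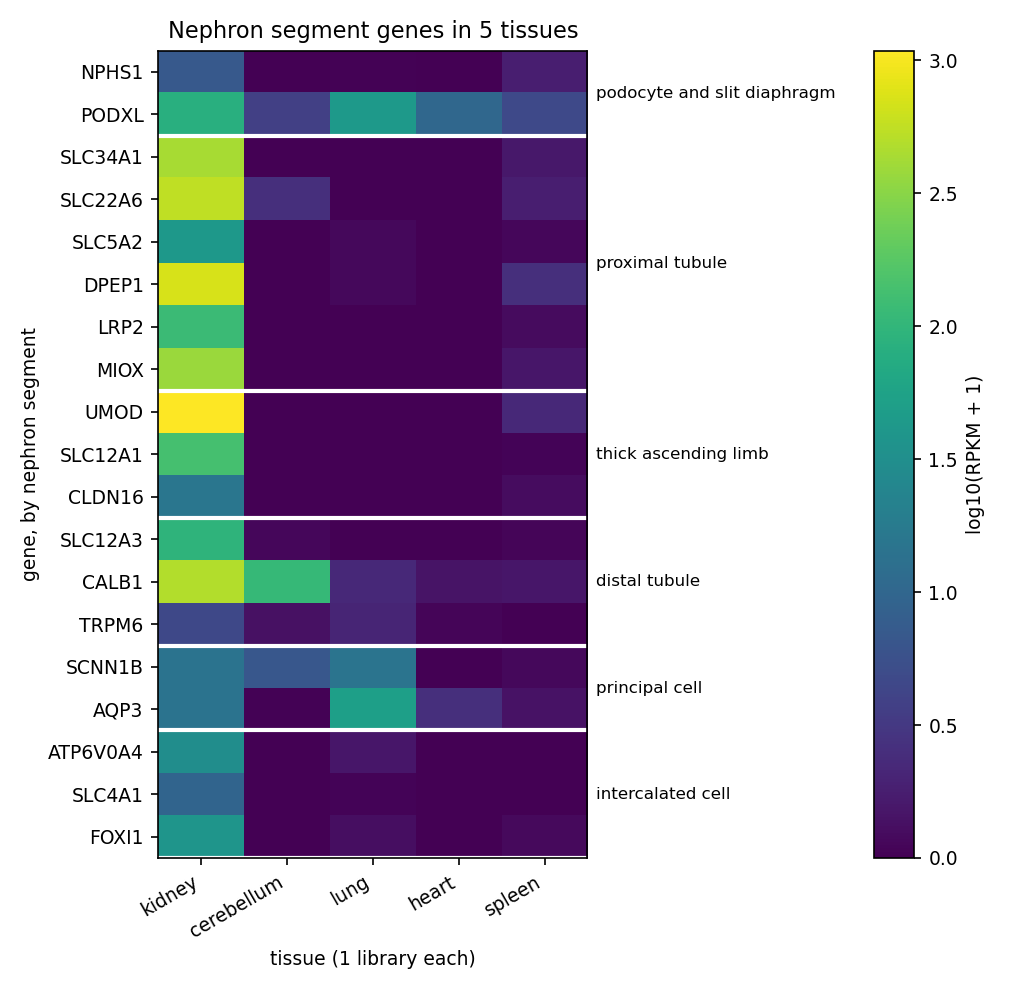
Levels of 19 genes as log10(RPKM + 1), shown by colour, in each of the 5 tissues (columns, 1 library each), with the genes grouped by the part of the nephron they mark (rows). The kidney column is bright for proximal tubule and thick ascending limb genes such as DPEP1 and UMOD, while CALB1 is also high in cerebellum and AQP3 is higher in lung than in kidney.

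The distal convoluted and connecting tubule gave 5 kidney-high genes of 14, with a median ratio of 1.94. SLC12A3, the thiazide-sensitive sodium-chloride carrier, was at 94.5 RPKM in kidney and at most 0.128 elsewhere. HSD11B2, which shields the mineralocorticoid receptor from cortisol, was at 834 RPKM in kidney, 0.414 in cerebellum, 6.06 in lung, 0.344 in heart and 2.70 in spleen, a ratio of 118. The kallikrein KLK1 was at 131 RPKM in kidney and at most 0.994 elsewhere. The calcium-binding proteins of this segment are also made by neurons of the cerebellum. CALB1 was at 488 RPKM in kidney and 108 in cerebellum, and PVALB at 10.7 in kidney and 102 in cerebellum. The magnesium channel TRPM6 was at 3.53 RPKM in kidney and 1.09 in lung.

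None of the 9 expressed principal cell genes was kidney-high, beside 2.79% of all genes, and the median ratio was 1.09. With so few genes, none is near that share. The 3 subunits of the epithelial sodium channel were also expressed in lung, with SCNN1A at 61.0 RPKM in kidney and 45.6 in lung, SCNN1B at 13.3 and 13.6, and SCNN1G at 20.7 and 8.86. AQP3, a water channel of the basolateral membrane, was at 13.4 RPKM in kidney and 50.5 in lung. AQP4, another basolateral water channel, was at 0.0180 RPKM in kidney, with 4 reads, against 38.6 in cerebellum and 33.6 in lung. AQP2 and the vasopressin receptor AVPR2, which define this cell, had no match in the name table and were not analysed here.

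Intercalated cells, the acid-secreting cells of the same duct, gave a different count, with 14 of 18 genes kidney-high and a median ratio of 10.4. FOXI1, the transcription factor of these cells, was at 37.3 RPKM in kidney, 0 in cerebellum, 0.307 in lung, 0 in heart and 0.204 in spleen. Of the proton pump, the subunits ATP6V0A4 and ATP6V1B1 were at 29.9 and 61.7 RPKM in kidney and at most 0.509 and 6.19 elsewhere. SLC26A4, the pendrin exchanger of bicarbonate-secreting cells, was at 22.9 RPKM in kidney, and the anion exchanger SLC4A1 at 8.49. SLC4A1 is also the main membrane protein of red cells, and the part of red cells in its level was not tested. Of red cell genes, HBA was at 0.719 RPKM in kidney and 52.1 in spleen, AHSP at 0 and 0.304, and ALAS2 at 0.0863 and 0.947, while HBA1 had no read in any tissue. CA4, a membrane carbonic anhydrase, was at 44.8 RPKM in kidney and 64.6 in cerebellum.

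Podocyte genes were present with 1 of 10 kidney-high and a median ratio of 0.776. NPHS1, the gene of nephrin, was at 6.12 RPKM in kidney and 0.790 in spleen. Podocyte genes that other cells also use were found in other tissues, with PODXL at 80.9 RPKM in kidney and 42.8 in lung, CLIC5 at 22.8 and 103, and WT1 at 6.37 in kidney and 8.75 in spleen.

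**Figure D4:**
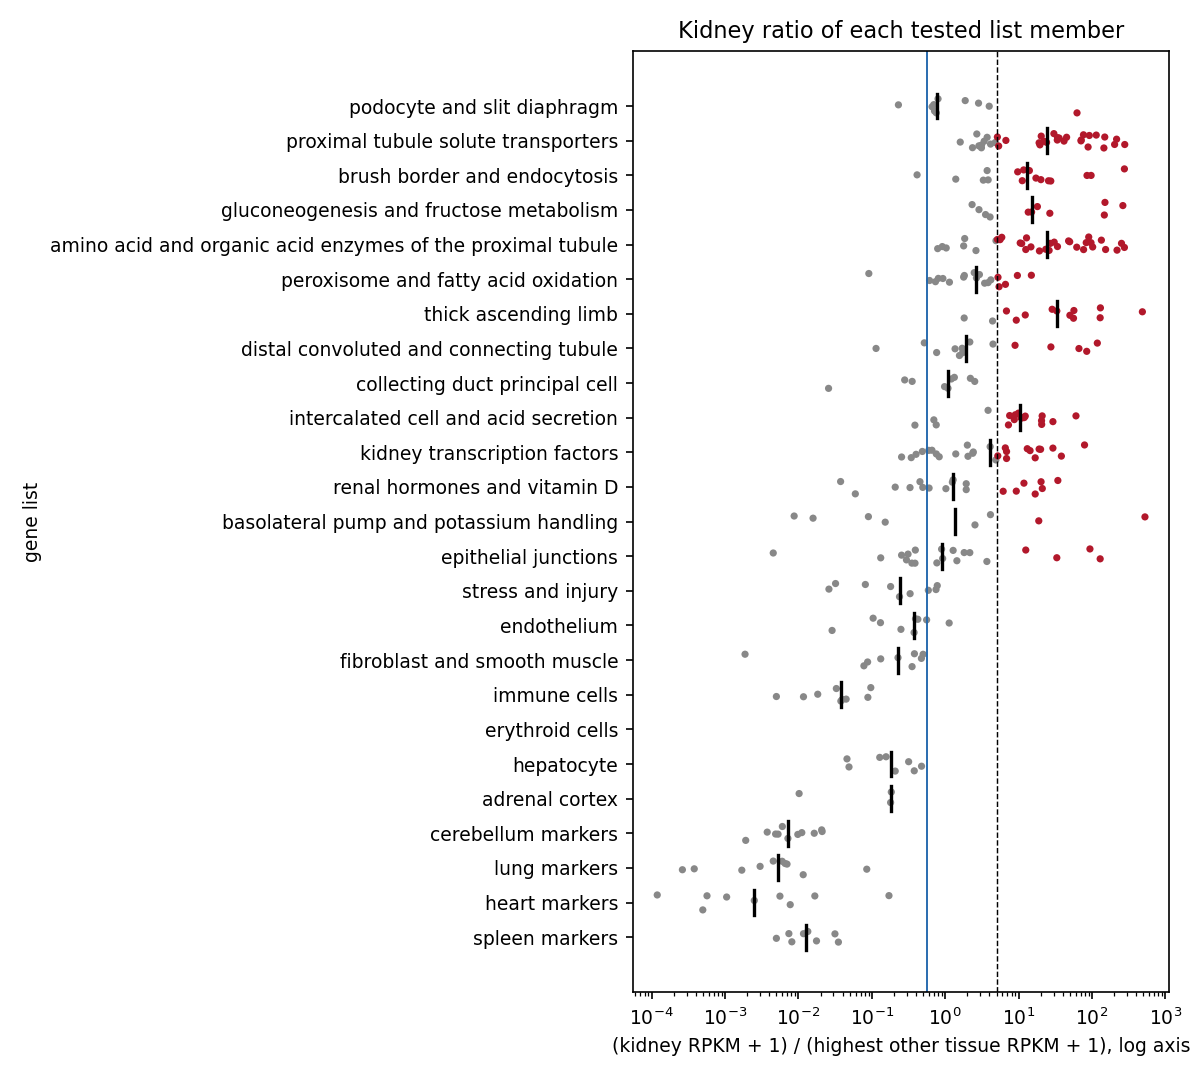
Ratio of RPKM + 1 in kidney to the highest of the other 4 tissues (log x axis) for every expressed member of each gene list (y axis), 1 point per gene, red at 5-fold or more. Short black bars are list medians, the dashed line is 5-fold, and the blue line is the median of all genes, 0.566. Tubule lists such as the thick ascending limb, at a median of 33.1, lie to the right of that line, and markers of the other 4 tissues lie to its left.

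Of the kidney transcription factors, 12 of 27 were kidney-high. HNF4A, which drives proximal tubule genes, was at 89.8 RPKM in kidney, 0 in cerebellum, 0.150 in lung, 0.0217 in heart and 0.0955 in spleen. PAX8 and PAX2, both factors of nephron formation, were at 41.9 and 45.1 RPKM in kidney and at most 0.122 and 1.43 elsewhere. LHX1, a factor of the nephron and of Purkinje cells, was higher in cerebellum, at 24.7 RPKM, than in kidney, at 11.5. Factors known from nephron progenitors differed among themselves, with SIX2 at 0.0233 RPKM in kidney from 2 reads, EYA1 at 0.111 and SALL1 at 28.7.

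Hormone genes gave 7 kidney-high members of 19. CYP27B1, which makes active vitamin D, was at 17.9 RPKM in kidney and CYP24A1, which breaks it down, at 36.3, each at most 0.603 elsewhere, and the vitamin D receptor VDR was at 36.3 in kidney and 1.21 in spleen. KL, the coreceptor for FGF23, was at 48.0 RPKM in kidney and 6.97 in lung. The parathyroid hormone receptor PTH1R was at 146 RPKM in kidney and 14.9 in lung. EPO, the gene of erythropoietin, was at 1.02 RPKM in kidney from 34 reads and at most 0.0457 elsewhere, a ratio of 1.93. The angiotensin-converting enzyme ACE was at 30.5 RPKM in kidney and 62.7 in lung.

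The sodium pump and junction lists mixed both directions. ATP1B1, a beta subunit of the pump, was at 591 RPKM in kidney and 142 in cerebellum, a ratio of 4.13. In all, 2 of 8 genes of the pump list were kidney-high, the potassium channel KCNK5 and the gene of uncertain symbol called FXYD6. Of 20 junction genes, 4 were kidney-high. CLDN2, the cation pore of the proximal tubule, was at 194 RPKM in kidney and at most 1.08 elsewhere, CDH16, the kidney cadherin, at 175 and 0.370, and CLDN8, of the collecting duct, at 30.8 and 1.55. The general epithelial genes CDH1 and KRT19 were lower in kidney, at 9.66 and 16 RPKM, than in lung, at 26.5 and 65.8.

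The kidney library held little RNA of the marker genes of the other tissues. Summed over 11 cerebellum markers kidney had 10.6 RPKM against 3605 in cerebellum, over 10 lung markers 2.74 against 8890 in lung, over 9 heart markers 6.65 against 15854 in heart, and over 8 spleen markers 1.05 against 828 in spleen. None of these markers was kidney-high, which was largely given by picking them as markers of another tissue. All 9 immune genes were at least 5-fold below their highest tissue, with 27.7 RPKM summed in kidney, 541 in lung and 954 in spleen, and the leukocyte gene PTPRC was at 1.73 RPKM in kidney and 148 in spleen. No gene of the lists for endothelium (9 genes), fibroblast and smooth muscle (9) or stress and injury (9) was kidney-high. Over all genes the share was 2.79%, so none among so few genes is not read as a result about these lists. Of the endothelial genes PECAM1 was at 20.2 RPKM in kidney and 161 in lung, and of the stress genes the immediate early factor JUNB was at 16.3 RPKM in kidney and 211 in lung. Hepatocyte genes, of interest because liver shares enzymes with the proximal tubule, summed to 30.3 RPKM in kidney and 278 in lung, with ALB at 4.46 and 111. Of 3 adrenal cortex genes compared none was kidney-high, which is likewise not read as a result.

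Outside the lists, 196 of the 322 kidney-high genes with a symbol remained. AOC1, the diamine oxidase that breaks down histamine, was at 684 RPKM in kidney, 0.0102 in cerebellum, 1.55 in lung, 0.131 in heart and 0.866 in spleen. DHDH, a dihydrodiol dehydrogenase, was at 780 RPKM in kidney and at most 4.84 elsewhere. The drug-conjugating UGT1A1 was at 328 RPKM in kidney and at most 1.46 elsewhere, and CYP2C76, a macaque cytochrome P450, at 405 and 2.40. TINAG, an antigen of the tubule basement membrane, was at 150 RPKM in kidney and at most 0.181 elsewhere. The folate receptor FOLR1 was at 97.1 RPKM, the vitamin B12 carrier TCN2 at 560, and AQP6, a channel of intercalated cells, at 32.6. UGT1A1, CYP2C76, CYP4A11 and the SLC22 genes have close relatives in the genome, and how reads shared between relatives were counted is not given in the sources used here. By ratio, the leading genes without a symbol were ENSMMUG00000000337 at 375 RPKM and ENSMMUG00000022916 at 225 RPKM in kidney, each at most 0.522 elsewhere.

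Further enzymes outside the lists act on drugs, peroxides and small metabolites, and they were chosen after their values had been seen. AKR7A3, an aldehyde reductase, was at 324 RPKM in kidney, 0.0196 in cerebellum, 2.62 in lung, 0 in heart and 0.525 in spleen. DHRS4, a carbonyl reductase of peroxisomes, was at 203 RPKM in kidney and below 1 RPKM in the other 4 tissues. The alcohol dehydrogenase ADH1B was at 66.5 RPKM in kidney and 1.71 in lung, and GSTZ1, of tyrosine breakdown, at 206 in kidney and 9.54 in spleen. GPX1, the intracellular glutathione peroxidase, lay near the 5-fold line with a ratio of 5.85, at 781 RPKM in kidney, 7.66 in cerebellum, 133 in lung, 92.7 in heart and 60.5 in spleen. AGXT, which detoxifies glyoxylate, had a ratio of 20.9, with lung next at 0.960 RPKM. BBOX1, the last enzyme of carnitine synthesis, was at 39.5 RPKM in kidney and at most 0.297 elsewhere, and CHDH, the choline dehydrogenase that makes betaine, at 53.1 and at most 1.81. LGMN, a lysosomal protease, was at 473 RPKM in kidney and 66.4 in spleen. XPNPEP2, a membrane aminopeptidase, was at 254 RPKM in kidney and 2.52 in spleen, and STRA6, the receptor for retinol binding protein, at 57.2 in kidney and 0.603 in spleen.

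Gene families were taken by symbol after the levels had been seen. Solute carriers had 47 kidney-high genes of 276 (17.0%), beside 2.79% of all genes, and their median ratio was 0.798. Within them 7 of 16 SLC22 genes and 2 of 33 mitochondrial SLC25 genes were kidney-high. Cytochromes P450 had 7 of 24, aldehyde dehydrogenases 4 of 15, proton pump subunits 4 of 11, claudins 4 of 10 and potassium channels 3 of 45. Of 6 expressed HOX factors 4 were kidney-high, namely HOXA7, HOXA9, HOXB8 and HOXC10. Collagens (28 genes) and ribosomal proteins (60 genes) had none.

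Some kidney-high genes were neighbours on the chromosome. With genes ordered by position, 106 of 438 (24.2%) were next to another kidney-high gene, and 10 runs held 3 or more. Kidney-high genes were 2.79% of the genes compared. The same share of neighbours over all genes was not computed, so 24.2% is not read as an excess. On chromosome 20 GP2, UMOD, ACSM5, an unnamed gene and ACSM1 followed each other from position 19305913 to 19558660, at 8.40, 1086, 18.7, 58.7 and 5.97 RPKM. Neighbours in this run are relatives in part, as ACSM1 and ACSM5 are, and UMOD and GP2 are too.

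The second highest tissue of the 438 genes was lung for 181, spleen for 139, cerebellum for 90 and heart for 28. Spleen held small amounts of a chosen set of kidney genes. For 12 genes at 100 RPKM or more in kidney and at most 0.1 RPKM in cerebellum, lung and heart, all 12 had reads in spleen, at a median of 0.123% of the kidney RPKM and a range of 0.0546% to 0.193%. UMOD had 200 spleen reads, SLC34A1 had 87, LRP2 had 99 and MIOX had 56. The same choice made for heart or lung left 2 genes each and for cerebellum 3, with medians of 0 to 0.0104%. Those choices required at most 0.1 RPKM in spleen, which removed most of the 12 genes. They therefore cannot show whether spleen differs from the other tissues. The cause of the spleen reads was not tested. Without spleen among the other tissues, 474 genes were kidney-high, of which 438 were those above. Leaving out a tissue cannot remove a gene under this rule, so the 438 had to remain.

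**Figure D5:**
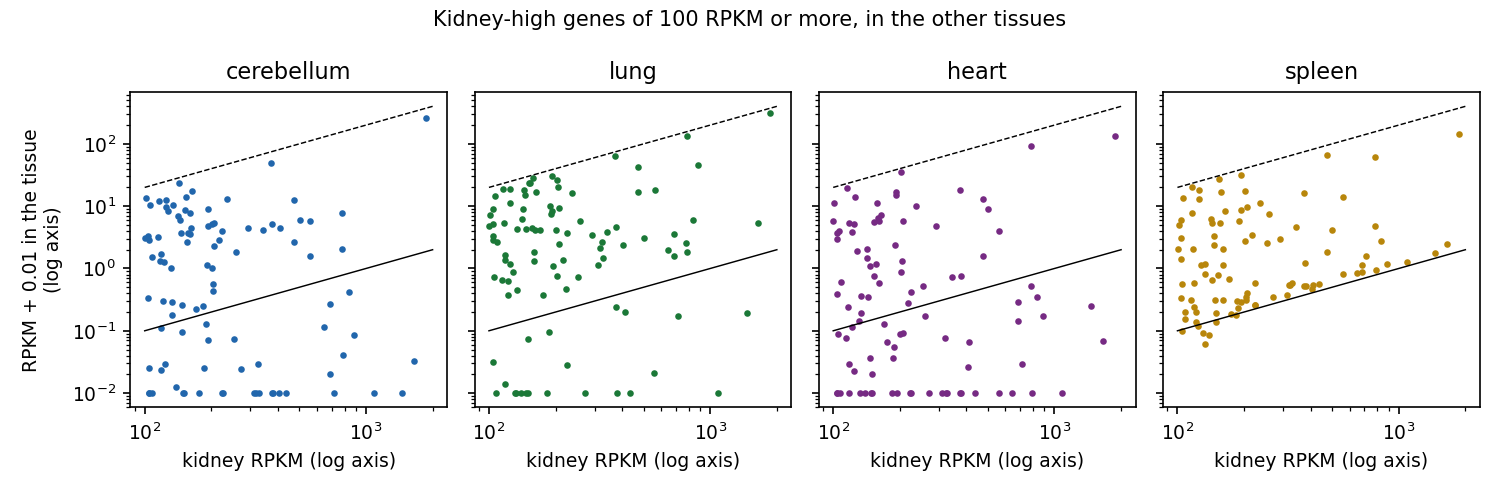
Level in cerebellum, lung, heart and spleen, as RPKM + 0.01 (log y axis), of the 98 kidney-high genes at 100 RPKM or more in kidney (log x axis); points at the bottom have no reads. The dashed line is 5-fold and the solid line 1000-fold below the kidney level, and the spleen points have a lower edge along the solid line while the other tissues have points at 0.

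Kidney shared further genes with 1 other tissue. At least 5-fold above the highest of the remaining 3 tissues in both members of a pair were 24 genes for kidney with cerebellum, 50 with lung, 8 with heart and 8 with spleen, leaving out genes kidney-high on their own. With lung, the secreted protein WFDC2 was at 71.4 RPKM in kidney and 110 in lung, the polymeric immunoglobulin receptor PIGR at 35.6 and 22.8, and the surface protease TMPRSS2 at 34.5 and 17.0, each at most 0.484 RPKM in the remaining 3 tissues. With cerebellum, OGDHL was at 46.2 RPKM in kidney and 18.5 in cerebellum, and AGT, the precursor of angiotensin, at 34.8 and 34. With heart, CRYM, a thyroid hormone binding protein, was at 18.3 and 17.9, and the lipid droplet protein PLIN5 at 9.0 and 7.24. With spleen, the homeobox factor HOXD8 was at 30.6 RPKM in kidney and 12.3 in spleen, and the haem oxygenase HMOX1 at 66.6 and 283.

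Only 4 genes (0.0255%) were at least 5-fold below the lowest of the other tissues. NDRG4, a gene known from brain and heart, was at 0.909 RPKM in kidney, 249 in cerebellum, 42.5 in lung, 280 in heart and 39.5 in spleen, with 134 kidney reads. It lies at chr20:56855712-56868604. SPARCL1, an extracellular matrix protein of vessels and brain, was at 6.8 RPKM in kidney, 166 in cerebellum, 204 in lung, 65.7 in heart and 54.3 in spleen. Both remaining genes lacked a symbol, ENSMMUG00000022868 at 1.93 RPKM and ENSMMUG00000010906 at 0.0967 RPKM in kidney. By the same rule cerebellum had 72 such genes, heart 16, spleen 3 and lung 0.

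Among genes with a symbol, the next lowest ratios to the lowest other tissue, all short of 5-fold, ran from 0.223 to 0.346 and belonged to ANGPTL2, AP1S2, INO80C, C3, SLC38A1, GAS7, PHACTR1, a gene with the symbol U6, MAPRE2, CAMK2D, MCAM, DKK3 and CIT. For C3, the central protein of complement, the transcript that stood for the gene has 1839 bp of exon. This transcript had no kidney read, which allows at most 0.0432 RPKM at the upper 95% Wilson bound. It was at 9.25 RPKM in cerebellum, 125 in lung, 3.25 in heart and 23.3 in spleen. Any other C3 transcript is not reported here. MCAM, an adhesion molecule of vessels and smooth muscle, was at 5.05 RPKM in kidney and between 19.0 and 37.8 elsewhere. SLC38A1, a glutamine carrier, was at 3.3 RPKM in kidney and 16.3 to 32.4 elsewhere. DKK3, a secreted glycoprotein, was at 5.15 in kidney and 19.1 to 170 elsewhere. In all, 129 genes reached 1 RPKM in each of the other 4 tissues and not in kidney, of which ALDOC, the brain aldolase, was at 0.122 RPKM in kidney and 524 in cerebellum. In the opposite direction, 488 genes reached 1 RPKM in kidney alone, of which 170 were at 10 RPKM or more. The numbers detected in 1 tissue alone were 803 for cerebellum, 553 for lung, 546 for spleen and 130 for heart.

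Taken 1 tissue at a time, kidney was at least 5-fold above cerebellum in 1178 genes (7.51%) and below it in 932 (5.94%). Against lung it was above in 647 genes (4.12%) and below in 793 (5.05%). Against heart it was above in 1238 genes (7.89%) and below in 298 (1.90%), and against spleen above in 875 (5.58%) and below in 928 (5.92%). These comparisons share the kidney library. The median log2 ratio of RPKM + 1 over all genes, kidney to the other tissue, was 0.15 for cerebellum, -0.23 for lung, 0.65 for heart and -0.24 for spleen, and the heart median lay furthest from 0. When the tissues were scaled by median-of-ratios size factors, which brought the heart median to 0.00, the genes above heart were 57.7% of all calls in that comparison in place of 80.6% (in brackets, under upper quartile scaling, 62.4%), the genes above lung 57.5% in place of 44.9% (49.9%), and the genes above spleen 57.7% in place of 48.5% (54.8%). Over 15688 genes Spearman's rho of kidney with the other tissues was 0.53 for cerebellum, 0.68 for lung, 0.68 for heart and 0.62 for spleen, as a description over genes that are not independent.

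Of the kidney-high genes, 201 had several transcripts. In 2 of these the transcript highest in kidney was not the row used. The 3 UMOD transcripts were at 858, 910 and 1086 RPKM in kidney. HNF4A had 3 long transcripts at 86.2 to 89.8 RPKM and a short one at 28.1, and PAX2 had 1 at 45.1 and 3 at 26.7 to 29.8. Transcripts of a gene can carry the same reads, so these are not separate measurements.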

How the data were processed

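Poly(A)-positive, strand-specific libraries of 5 tissues were analysed, 1 per tissue. The authors used BWA for alignment to the rheMac2 genome and to known transcripts, and TopHat 1.2.0 is named in the submitters' processing notes. How reads were counted, and whether strand was used, is not given in the sources used here. For each of 51763 transcripts of revised gene models the authors deposited the read count, not normalized, and the RPKM, which was recomputed from the reads, exon length and properly mapped reads in all 51763 rows. The 5 files were joined by transcript identifier. Transcripts with no gene identifier numbered 8057. Symbols came from a table of gene identifiers, which named 15556 of 28633 genes.

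A pseudocount of 1 RPKM was added to each value, so the ratio of a low gene is understated. The rule was run on read counts simulated from the lung levels for every tissue, with chosen genes raised in kidney. That checks the computation and not the calls made on the real libraries. Of 448 list symbols 348 matched. Text names the 25 genes with the highest and 15 with the lowest ratio, the 20 with most reads, and list members, and further genes chosen after their values were seen. The members and lists were chosen with earlier results of these data known. Some genes named by this rule are not reported here. No test between tissues was made. Alternatives were other pseudocounts, folds, filters, scalings, rows per gene, thinning to the kidney depth and leaving out a tissue. Computation used Python 3.11.15 (pandas 2.3.3, numpy 2.4.6), and plots matplotlib 3.10.9.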

Additional observations from a re-analysis of the deposited data

How the results depend on the processing

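No paired analysis was possible because each tissue had 1 library and the results come from no test. The number of kidney-high genes, 438, became 150 with a pseudocount of 10 RPKM, 683 at a fold of 3 and 266 at a fold of 10, and the list members among them, 126, became 71 with a pseudocount of 10 RPKM. With each other tissue left out in turn the number of kidney-high genes was 472 to 580. Leaving out a tissue can only keep or raise this count and that of genes below all other tissues. The 4 genes at least 5-fold below all other tissues became 31 with a pseudocount of 0.1 RPKM, 0 with 10 RPKM, 7 under upper quartile scaling and also under median-of-ratios scaling, 18 without cerebellum, 24 without heart, 10 without spleen, 20 at a fold of 3 and 1 at a fold of 10. The scalings of the single-tissue counts were added after the data were seen. Against heart, median-of-ratios scaling gave 808 genes above and 592 below, and upper quartile scaling 513 below. In kidney, the top 10 genes held 2.33% of properly mapped reads and the top 100 held 8.94%. Ranked and summed as RPKM, the shares were 6.35% and 25.1%. Counted over all transcript rows, the top 10 transcripts held 5.30% of the reads on them and the top 100 held 15.7%. By that count the top 10 held 4.53% in lung, 3.28% in cerebellum, 2.48% in spleen and 8.21% in heart, which put kidney above lung. The 25 highest and 15 lowest ratios of genes with a symbol were recomputed under 11 alternatives, and 101 of the 440 log2 ratios shifted by a set margin or more. None that was at least 5-fold changed direction. These were picked as the most extreme ratios of the same data, so a change of direction was hardly possible. With 48306898 kidney reads, a level below 0.0621 RPKM rested on fewer than 3 reads for a transcript of 1000 bp. The cause of these changes was not tested beyond the construction of each alternative.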
